A study of Mus musculus with 6 samples.

Results

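Podocyte genes were followed in scarring mouse kidneys by messenger RNA sequencing. The set holds 8 of the 33679 genes in the expression table and was chosen by gene name: Nphs1, Podxl, Synpo, Wt1, Ptpro, Magi2, Plce1 and Cdkn1c. The kidneys came from Cd248 KO mice and from wild type (WT) mice. Both groups had unilateral ureteral obstruction, in which 1 ureter is tied off, and no unobstructed kidney was analysed here. The labels give 3 samples per genotype and state neither the age of the mice nor how long the ureter was blocked. Values were used from 4 libraries, Cd248 KO replicate 1 and WT replicates 1, 2 and 3. The labels mention pooled RNA and do not state that each replicate is a separate mouse, so the p-values below rest on library-to-library spread that may be technical.

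Podocytes are the epithelial cells that wrap the capillaries of the glomerulus, the filter of the kidney. Their foot processes interlock and are joined by the slit diaphragm, a cell junction that holds back plasma protein. Podocytes seldom divide, and their loss in kidney disease is a route to glomerular scarring. In bulk tissue a lower level can come from fewer podocytes or from less RNA per podocyte. Levels are relative to the whole library, so more RNA from other cells can lower them too. These cannot be told apart. Several of the 8 genes are also used elsewhere: Podxl in endothelium, Wt1 in the parietal cells of Bowman's capsule, and Synpo, Magi2, Plce1 and Cdkn1c in other cell types.

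Cd248 encodes endosialin, a surface glycoprotein of fibroblasts and pericytes, and is the targeted gene. It was listed at 0 FPKM (fragments scaled to transcript length and library size) in the KO library and had 9.03, 9.57 and 8.78 FPKM in WT replicates 1, 2 and 3. The labels and this gene run in the same direction. Read depth is unknown because the table holds no counts. FPKM summed to 304426 in the KO library and to between 267394 and 285322 in the WT libraries.

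None of the 8 podocyte genes passed the test between the KO library and the WT libraries, and each of the 8 KO values lay within the range of the 3 WT values. Their differences ran from -0.15 for Synpo to 0.23 for Nphs1 on the log2(FPKM + 1) scale, with a median of 0.078, where the median over all 16871 tested genes was -0.0064. All 8 passed the filter of a mean of at least 0.5 FPKM. By limma with Benjamini-Hochberg adjustment, 0.723% of all tested genes passed at 0.05 (0.64% higher and 0.083% lower in the KO library), and 0 of the 8 did in either direction; at an unadjusted p under 0.05, 10.8% of all tested genes and 0 of the 8 passed. The KO value lay within the WT range for 40.8% of all tested genes and outside it for 59.2%. With 1 KO library the spread comes from the WT libraries alone, and the KO library is assumed to vary like them.

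Nphs1, Magi2 and Plce1 act at the slit diaphragm or signal from it. Nphs1 (ENSMUSG00000006649, mm10 chromosome 7, 30458315 to 30487223, plus strand) encodes nephrin, the adhesion protein that spans the slit. It had 10.3 FPKM in the KO library, against 11.3, 7.35 and 7.74 FPKM in WT replicates 1, 2 and 3. The KO value thus lay near the highest WT library and above the other two. The difference was 0.23 (SE 0.25, 95% interval -0.46 to 0.91, limma adjusted p = 0.783), and the KO value was 1.17 times the WT mean of 8.80 ± 2.18 FPKM (SD, n = 3). In the annotation, an exon of Nphs1 overlaps a ribosomal protein pseudogene on the opposite strand, Rps12-ps4. That pseudogene had 25.9 FPKM in the KO library and 25.5 to 28.1 FPKM in the WT libraries. Since the counting is not stated to use strand, reads of this stretch may be shared, and the Nphs1 value is uncertain to that extent.

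Magi2 (chromosome 5, 19227036 to 20704792, plus strand) encodes a scaffold protein that binds nephrin from the inside of the cell. Its level was low, at 1.39 FPKM in the KO library, against 1.46, 1.10 and 1.11 FPKM in WT replicates 1, 2 and 3. As for Nphs1, WT replicate 1 was highest, the KO library came next and WT replicates 2 and 3 lay close together below. The difference was 0.11 (SE 0.15, 95% interval -0.30 to 0.52, limma adjusted p = 0.828).

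Plce1 (chromosome 19, 38481109 to 38785030, plus strand) encodes a phospholipase C, and loss of the human gene causes nephrotic syndrome. It had 1.49 FPKM in the KO library, against 1.85, 1.99 and 1.40 FPKM in WT replicates 1, 2 and 3. Here WT replicate 2 was highest and the KO library lay in the lower part of the WT range. The difference was -0.14 (SE 0.17, 95% interval -0.59 to 0.32, limma adjusted p = 0.808).

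A pair of members are membrane proteins of the podocyte's urinary face. Podxl (chromosome 6, 31519488 to 31563981, minus strand) encodes podocalyxin, a sialylated protein whose negative charge keeps foot processes apart. It was the most abundant of the 8, with 53.0 FPKM in the KO library, against 66.3, 46.6 and 43.3 FPKM in WT replicates 1, 2 and 3. The KO value lay close to the WT mean of 52.1 ± 12.4 FPKM (SD, n = 3), between WT replicate 1 and the other two WT libraries. The difference was 0.049 (SE 0.27, 95% interval -0.67 to 0.77, limma adjusted p = 0.963). Its sign depended on the scaling: once every library was brought to 1 common FPKM total, it was -0.084.

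Ptpro (chromosome 6, 137252319 to 137463233, plus strand) encodes a receptor tyrosine phosphatase of the foot process membrane, also known as GLEPP1. It had 5.93 FPKM in the KO library, against 7.21, 5.17 and 5.21 FPKM in WT replicates 1, 2 and 3. The order of the libraries was that of Podxl and Magi2 at its top, with WT replicate 1 first and the KO library second. The difference was 0.027 (SE 0.20, 95% interval -0.52 to 0.58, limma adjusted p = 0.973), and it was -0.089 at a common FPKM total.

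Synpo (chromosome 18, 60593973 to 60660142, minus strand) encodes synaptopodin, which organizes actin in foot processes. It had 17.62 FPKM in the KO library, against 21.40, 20.26 and 17.61 FPKM in WT replicates 1, 2 and 3. The KO library and WT replicate 3 differed by 1 unit of the second decimal, and WT replicates 1 and 2 lay above both. The difference was -0.15 (SE 0.13, 95% interval -0.51 to 0.21, limma adjusted p = 0.720).

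The nuclear members are Wt1 and Cdkn1c. Wt1 (chromosome 2, 105126529 to 105173616, plus strand) encodes a zinc finger transcription factor that keeps podocytes differentiated and binds regulatory regions of Nphs1 and other podocyte genes. It had 3.74 FPKM in the KO library, against 3.75, 3.06 and 2.57 FPKM in WT replicates 1, 2 and 3. The KO library equalled the highest WT library to within 1 unit of the second decimal and lay above the other two. The difference was 0.21 (SE 0.19, 95% interval -0.29 to 0.71, limma adjusted p = 0.726), with the KO value at 1.20 times the WT mean.

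Cdkn1c (chromosome 7, 143458339 to 143461050, minus strand) is an imprinted gene for an inhibitor of cyclin-dependent kinases, present in mature podocytes, which are out of the cell cycle. It had 14.4 FPKM in the KO library, against 14.4, 12.7 and 11.5 FPKM in WT replicates 1, 2 and 3. Again the KO library stood beside WT replicate 1. The difference was 0.16 (SE 0.14, 95% interval -0.23 to 0.54, limma adjusted p = 0.734). In the authors' deposited table the fold change of KO over WT lay between 0.86 for Plce1 and 1.2 for Wt1, with p-values of 0.3 to 0.89 and a q-value of 1 for each of the 8. These fold changes lie close to the KO value over the WT mean of the same 4 libraries (0.853 for Plce1 and 1.20 for Wt1). They are therefore not a separate check. Over the 8 genes the lowest bound of any 95% interval was -0.67 (Podxl) and the highest was 0.91 (Nphs1). For each gene, differences within its own interval are compatible with these libraries, and a p above the threshold does not show equal levels.

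**Figure D1:**
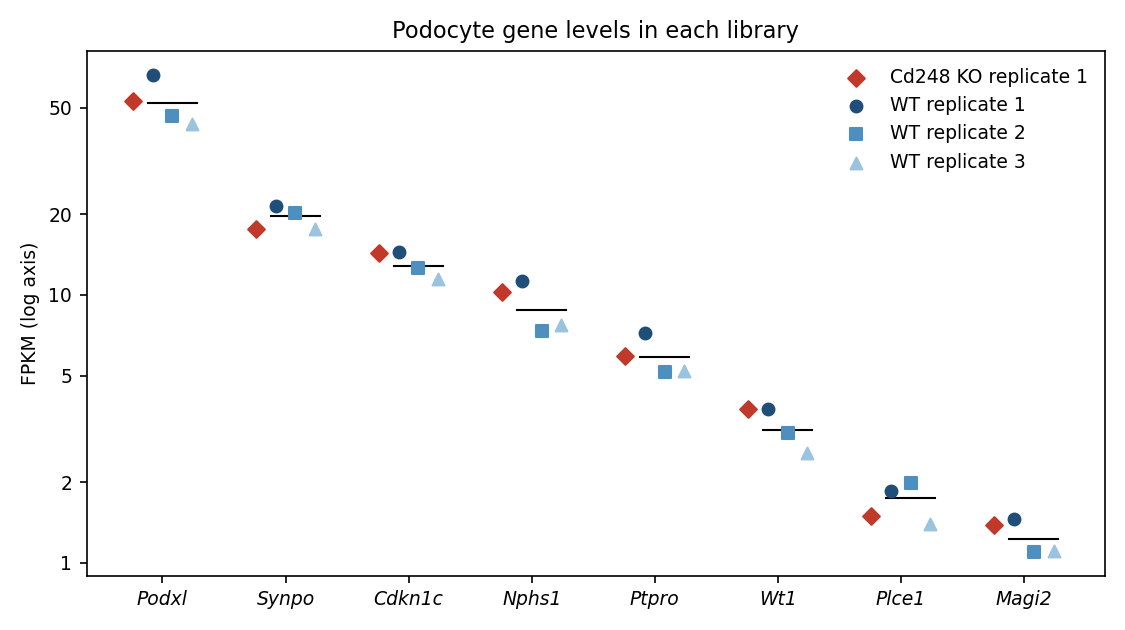
FPKM (log axis) of the 8 podocyte genes in each of the 4 libraries, ordered by WT mean, with the KO library as red diamonds, WT replicates 1, 2 and 3 as blue symbols and the WT mean as a black line. Every KO value lies within the WT range, and WT replicate 1 is the highest WT library for all but Plce1.

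The order of the levels was the same in all 4 libraries: Podxl, Synpo, Cdkn1c, Nphs1, Ptpro, Wt1, Plce1 and Magi2. FPKM is scaled to transcript length, so these levels can be set side by side. Over the 4 libraries each gene was separated from the next by its lowest value, apart from Plce1 and Magi2, whose values overlapped (1.40 to 1.99 FPKM in WT libraries for Plce1 and 1.10 to 1.46 FPKM for Magi2). The separation was narrow between Cdkn1c and Nphs1 (WT libraries at no less than 11.5 FPKM and no more than 11.3 FPKM) and between Nphs1 and Ptpro (7.35 and 7.21 FPKM). Among all tested genes, the WT mean of Podxl stood at the 96.3 percentile and that of Magi2 at the 16.5 percentile.

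The 8 genes also differed between WT libraries. WT replicate 1 was the highest library for 7 of the 8 genes and WT replicate 2 for Plce1, while the lowest library was WT replicate 3 for 5 genes and WT replicate 2 for 3. The highest WT value was 1.54 times the lowest for Nphs1, 1.53 times for Podxl and 1.46 times for Wt1, and 1.22 times for Synpo, the least variable by this ratio. The median SD among WT libraries was 0.19 on the log2(FPKM + 1) scale for the 8 genes and 0.11 for all tested genes. Summed over the 8 genes, the level was 107.8 FPKM in the KO library, against 127.7, 98.2 and 90.5 FPKM in WT replicates 1, 2 and 3. Podxl supplied the largest part, and without it the sum was 54.8 FPKM in the KO library, against 61.4, 51.6 and 47.1 FPKM in WT replicates 1, 2 and 3. As a share of the FPKM total the sum was 0.0354% in the KO library and 0.0382 ± 0.0085% in WT libraries (SD, n = 3).

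The place of the KO library within the WT range rested on WT replicate 1 for 6 genes and on WT replicate 3 for Synpo and Plce1. Without WT replicate 1, 6 of the 8 genes (Nphs1, Podxl, Wt1, Ptpro, Magi2 and Cdkn1c) had a KO value above both remaining WT libraries, as did 39.3% of all tested genes, and Synpo and Plce1 stayed within. The median difference of the 8 genes was then 0.21, and again none passed the test, where few of all tested genes passed either. Without WT replicate 3, Synpo and Plce1 lay below both remaining WT libraries, as did 41.8% of all tested genes, and the other 6 stayed within. At a common FPKM total, a scaling that moved the median difference of all tested genes by -0.11, Synpo and Plce1 lay below every WT library and the other 6 genes stayed within, against 36.7% of all tested genes within. Nphs1, Wt1, Cdkn1c and Magi2 kept a positive difference, and Synpo and Plce1 a negative one, under all 11 alternatives run. Some of these, such as a change of filter, cannot alter a difference.

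Levels relative to Nphs1 in the same library remove the scale of the library. Podxl was 5.15 times Nphs1 in the KO library, against 5.87, 6.35 and 5.60 times in WT replicates 1, 2 and 3. Ptpro was 0.577 times Nphs1 in the KO library, against 0.638, 0.703 and 0.673 times in the WT libraries. Synpo was 1.71 times Nphs1 in the KO library, against 1.89, 2.76 and 2.28 times in the WT libraries. With Plce1, 4 of the other 7 members had a ratio below every WT library, and Wt1, Magi2 and Cdkn1c lay within the WT range. Of all tested genes, 36.4% had a ratio to Nphs1 below every WT library and 5.71% one above, which is the background for these counts. The ratios of the 7 members share 1 divisor and are not independent. Nphs1 had the largest positive difference of the 8 genes, and a higher Nphs1 value in the KO library lowers every ratio there. The ratio of Magi2 to Nphs1 was 0.135 in the KO library and 0.141 ± 0.010 in WT libraries (SD, n = 3).

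Other podocyte markers were read from a list of genes outside the 8. Of 18 listed names, 17 were in the table and 16 were tested; 0 passed limma's test, and the median difference was 0.060. Of the 16, 9 had a KO value within the WT range, 3 above it (Arhgap24, Clic5 and Dach1) and 4 below it. Among all tested genes the shares were 40.8% within, 28% above and 31.2% below.

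The largest differences in that list were negative. Tcf21, a transcription factor of podocytes and also of stromal fibroblasts, was at 20.5 FPKM in the KO library, against 28.0, 29.3 and 32.1 FPKM in WT replicates 1, 2 and 3 (-0.51, SE 0.11, limma adjusted p = 0.277). Kirrel, which encodes a nephrin-like adhesion protein of the slit diaphragm, was at 9.48 FPKM in the KO library, against 15.0, 14.4 and 11.9 FPKM in the WT libraries (-0.49, SE 0.15, limma adjusted p = 0.423). Both lay below every WT library, while Nphs1 lay within the WT range. Which cells supplied the Kirrel RNA in this bulk tissue was not tested. Col4a3, a basement membrane collagen chain made by podocytes and some tubules, was also below every WT library (16.6 FPKM in the KO library and 17.8 to 22.2 FPKM in WT libraries).

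**Figure D2:**
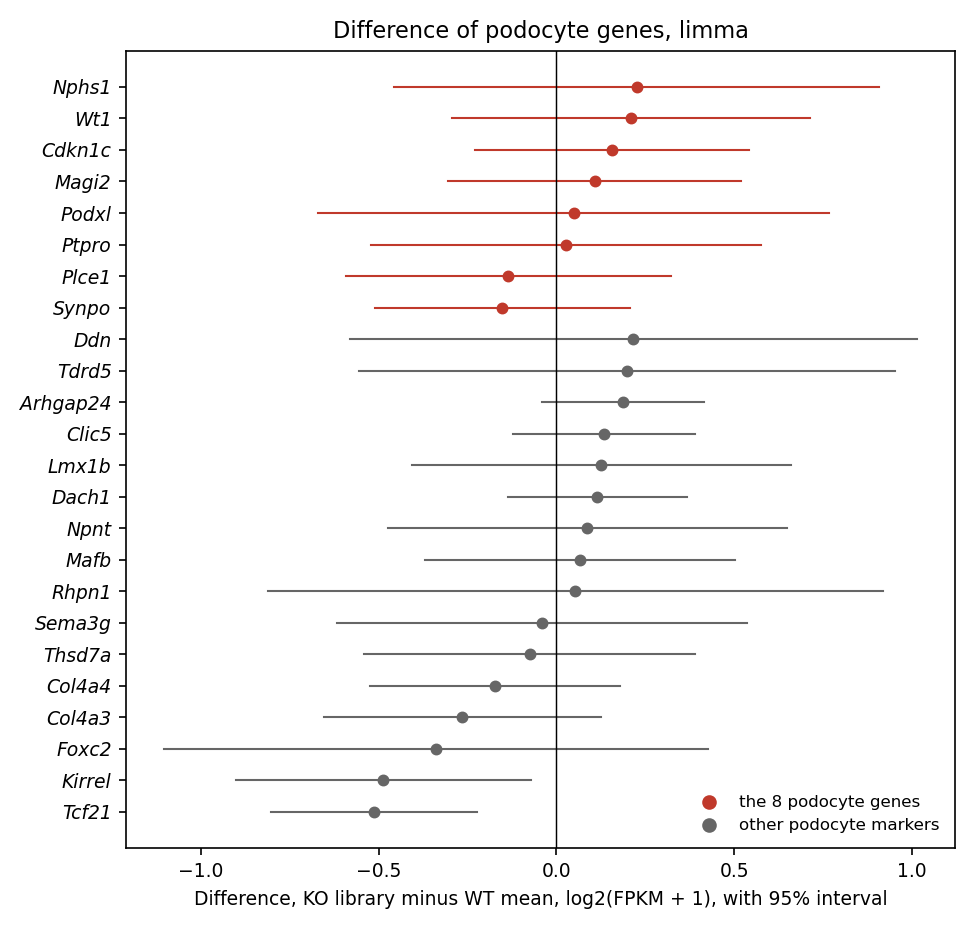
Difference between the KO library and the WT mean on the log2(FPKM + 1) scale with limma's 95% interval, for the 8 podocyte genes (red) and 16 other podocyte markers (grey). The intervals of the 8 genes all include 0, and Tcf21 and Kirrel are the 2 genes whose unadjusted interval does not.

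The next list held partners of the slit diaphragm and foot process that many cell types express. Of 19, 0 passed limma's test, 9 had a KO value below every WT library, 2 above and 8 within, where 31.2% of all tested genes lay below and 28% above. Their median difference was -0.16. Inf2, a formin that remodels actin and is mutated in inherited glomerular disease, was at 8.71 FPKM in the KO library, against 14.3, 12.6 and 12.4 FPKM in WT replicates 1, 2 and 3 (-0.54, SE 0.11, limma adjusted p = 0.277). Ilk, a kinase-like adaptor of integrin adhesions, was at 22.3 FPKM in the KO library, against 31.6, 32.1 and 29.2 FPKM in the WT libraries (-0.45, SE 0.10, limma adjusted p = 0.277). Cd2ap, which ties the slit diaphragm to actin, was at 10.9 FPKM in the KO library and 9.75 to 12.7 FPKM in WT libraries, within their range. Slc9a3r1 and Ezr lay above every WT library. Slc9a3r1 had 62.9 FPKM in the KO library and 44.7 to 54.4 FPKM in WT libraries. Ezr had 148 FPKM in the KO library and 129 to 142 FPKM in WT libraries.

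By their medians, marker lists of endothelium and mesangium had a different order of the libraries from the podocyte genes. Bulk tissue does not separate glomerular cells from others, and the endothelium list covers other vessels too. These lists, like that of parietal epithelium below, are thus not specific to the glomerulus. Of 7 endothelium markers, 0 passed the test and 6 had a KO value below every WT library, with a median difference of -0.27. The share of all tested genes below every WT library was 31.2%, which is the background for this list and the next. Cdh5, the cadherin of endothelial junctions, had 15.0 FPKM in the KO library, against 29.1, 32.1 and 23.3 FPKM in WT replicates 1, 2 and 3 (-0.85, limma adjusted p = 0.305). Of 4 mesangial markers, 0 passed and 3 lay below every WT library, with a median of -0.36. Pdgfrb, a growth factor receptor of mesangial cells and pericytes, had 27.3 FPKM in the KO library and 33.1 to 43.0 FPKM in WT libraries. Serpine2, the mesangial marker within the WT range, had 19.3 FPKM in the KO library and 15.4 to 19.4 FPKM in WT libraries (difference 0.12). The summed level of the endothelium markers was 88.7 FPKM in the KO library and 94.2 to 129.6 FPKM in WT libraries. For these lists WT replicate 2 held the highest median, whereas WT replicate 1 did so for the podocyte genes. The endothelium list was split: among WT libraries Pecam1, Flt1, Cdh5 and Emcn were highest in WT replicate 2. Plat, Ehd3 and Kdr were highest in WT replicate 1, as most podocyte genes were. Plat lay within the WT range, at 31.11 FPKM in the KO library and 21.25 to 37.60 FPKM in WT libraries. Parietal epithelium markers had a median difference of 0.083, with 0 of 3 called and Cldn1, a tight junction protein, above every WT library (29.9 FPKM in the KO library and 23.7 to 27.4 FPKM in WT libraries).

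Markers of cells outside the glomerulus were read for comparison. Proximal tubule markers summed to 269.5 FPKM in the KO library, against 103.6, 199.6 and 295.4 FPKM in WT replicates 1, 2 and 3, so WT replicate 1, where 7 of the 8 podocyte genes were highest, held the lowest level of these markers. Fibroblast markers summed to 245.7 FPKM in the KO library and to 483.4 to 627.2 FPKM in WT libraries; Col1a1 alone of 6 passed, at 68.8 FPKM in the KO library and 163 ± 6.21 FPKM in WT libraries (SD, n = 3; limma adjusted p = 0.0313). Urothelium markers summed to 5.63 FPKM in the KO library and to 54.4, 59.4 and 12.3 FPKM in WT replicates 1, 2 and 3, with Upk2 listed at 0 in the KO library. Plasma cell markers summed to 341.8 FPKM in the KO library and to 7.85 to 13.3 FPKM in WT libraries, and all 4 were called higher. No gene of the macrophage (median difference -0.052), proximal tubule (0.56), other nephron (0.14), urothelium (-1.82) or stress response (-0.56) lists passed the test. The stress response list holds immediate early genes such as Fos and heat shock genes such as Hspa1a. In it, 6 of 7 genes lay below every WT library, where 31.2% of all tested genes did. The part of cell composition and tissue sampling in the podocyte gene values was not tested.

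**Figure D3:**
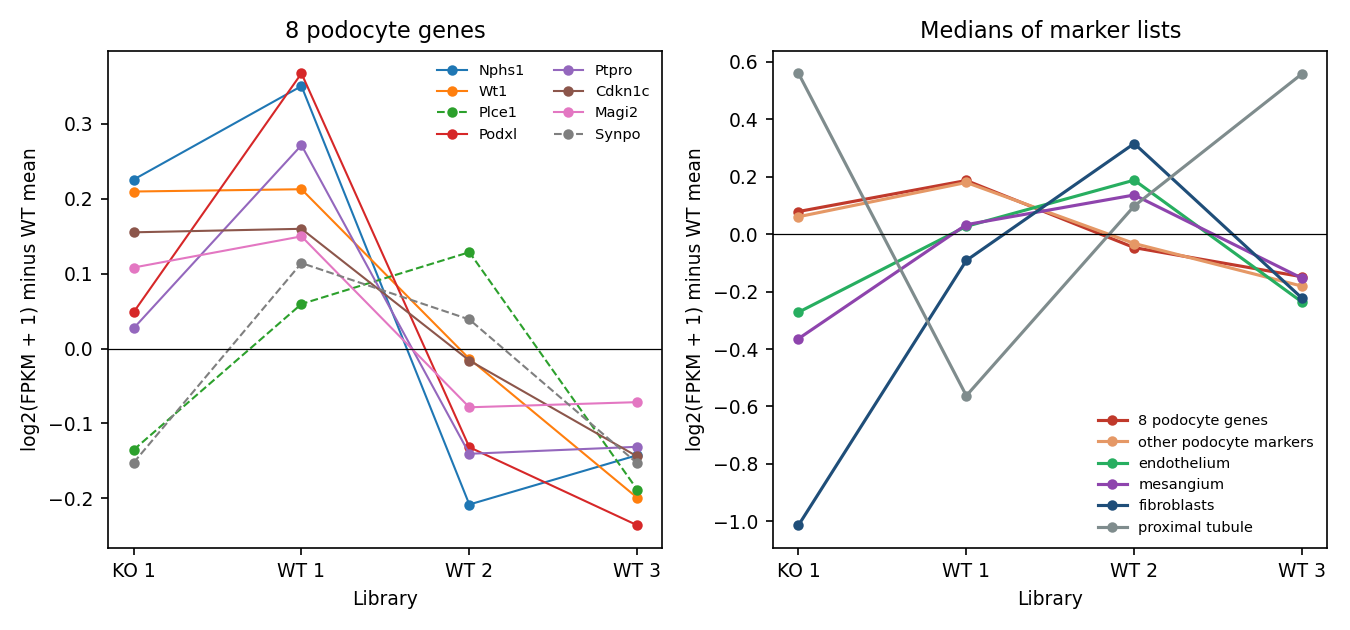
Left, log2(FPKM + 1) of each of the 8 podocyte genes minus its WT mean in the 4 libraries, with Synpo and Plce1 dashed; right, the median of the same quantity over the tested genes of 6 marker lists. Lines join values of 1 gene or list and imply no order of the libraries; the podocyte genes peak in WT replicate 1 apart from Plce1, and the KO library is far below WT for the fibroblast markers (median -1.01) but not for the podocyte genes (0.078).

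Promoter windows from RefSeq (GRCm38.p6, the same coordinates as mm10; 250 bases before the start of transcription and 50 after it) were matched by symbol for 4 members, Nphs1, Ptpro, Plce1 and Magi2. The windows of Nphs1 and Ptpro are shown as those of genes that peaked in WT replicate 1, and that of Plce1 as the gene that did not; the 2 windows of Magi2, at chr5:19226796-19227095 and chr5:19907268-19907567, also on the plus strand, are given by their counts of matches. Capitals mark matches to the E-box CANNTG, the kind of site read by basic helix-loop-helix factors such as TCF21. The 3 windows shown lie on the plus strand, Nphs1 at chr7:30459808-30460107, Ptpro at chr6:137252049-137252348 and Plce1 at chr19:38523947-38524246. The Ptpro window and the first Magi2 window contain the annotated start of the gene. The Nphs1, Plce1 and second Magi2 windows lie inside the gene, past its annotated start (30458315 for Nphs1 and 38481109 for Plce1). They therefore do not cover the region before that start.
Nphs1: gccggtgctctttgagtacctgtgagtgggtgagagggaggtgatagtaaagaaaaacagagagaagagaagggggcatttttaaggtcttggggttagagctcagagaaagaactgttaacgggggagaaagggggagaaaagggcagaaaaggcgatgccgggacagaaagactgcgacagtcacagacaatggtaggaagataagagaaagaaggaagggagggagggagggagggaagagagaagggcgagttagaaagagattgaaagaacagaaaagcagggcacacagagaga
Ptpro: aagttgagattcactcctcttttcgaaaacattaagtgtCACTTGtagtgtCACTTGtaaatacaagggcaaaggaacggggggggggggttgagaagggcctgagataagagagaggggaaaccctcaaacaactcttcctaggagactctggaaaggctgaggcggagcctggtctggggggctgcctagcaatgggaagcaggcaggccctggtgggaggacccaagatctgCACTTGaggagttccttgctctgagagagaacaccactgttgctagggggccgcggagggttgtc
Plce1: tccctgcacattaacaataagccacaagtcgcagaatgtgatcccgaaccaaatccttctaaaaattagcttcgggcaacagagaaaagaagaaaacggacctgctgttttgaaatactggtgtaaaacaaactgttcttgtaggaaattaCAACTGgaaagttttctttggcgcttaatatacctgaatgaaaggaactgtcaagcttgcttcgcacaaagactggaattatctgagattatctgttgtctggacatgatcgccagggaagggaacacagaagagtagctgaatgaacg
The E-box was searched on both strands, which are equivalent for this palindromic pattern. The window of Nphs1 held 0 matches, that of Ptpro 3, that of Plce1 1 and each Magi2 window 1, and 72.3% of the 32851 windows in the table held at least 1. The homeodomain core TAATTA, found in 5.29% of all windows, had 1 match in the second Magi2 window and 0 in the other 4 windows. The pattern GCGNGGGNG, close to sites of EGR and WT1 zinc fingers and found on either strand in 12.3% of all windows, had 1 match in the first Magi2 window and 0 in the other 4. The windows of Nphs1, Ptpro and Plce1 held 49.7%, 54.7% and 41% G and C, where the median over all windows was 52.7%. These matches describe the letters of the windows and are not binding sites.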

How the data were processed

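Poly(A) RNA of obstructed kidneys was sequenced on an Illumina instrument, per the labels' protocols. The submitters' processing notes list cutadapt 1.9, FastQC, HISAT2 2.0.4 and build mm10, without their roles. Which program made the expression values is not stated there. The authors deposited FPKM per gene, rounded to 2 decimals, for 1 knockout and 3 wild type libraries. The authors' fold change is a ratio, deposited with its log2 value and with a p-value and q-value whose test is not named. Knockout replicates 2 and 3 were not analysed here.

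Groups came from sample titles. Values were analysed as log2(FPKM + 1), which understates changes of low genes, keeping genes that averaged 0.5 FPKM or more. All tested genes were fitted with limma 3.58.1 in R 4.3.3, two-sided, with a mean-variance trend (2 residual and 2.32 prior degrees of freedom) and Benjamini-Hochberg adjustment at 0.05. The fit was tested on simulated data. An exact permutation test of 1 library against 3 cannot go below 0.25 and was not used. Positions are from GENCODE M21 on GRCm38, matched by gene identifier. The members and lists were chosen with earlier results of these data known. Named genes were the members, Cd248 and, where a result turned on them, each list's called genes or else its 2 largest differences at a mean of 1 FPKM or more; other genes named were chosen after their values were seen. A gene fixed for naming is not reported here, and genes of the rule on which no result turned are not named. Tables and plots were made with Python 3.11.15, pandas 2.3.3 and matplotlib 3.10.9.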

Additional observations from a re-analysis of the deposited data

How the results depend on the processing

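In 11 alternatives, 0 of the 8 podocyte genes were called, and the lowest adjusted p of any was 0.453 (limma). The share of all tested genes called was 0.723% in the main fit and small in the alternatives too. Thus 0 of 8 is near that background and is no result about these genes. A change of filter or of the mean-variance trend leaves each difference as it was, so only the other alternatives bear on direction. Of all 88 differences, 80 kept their direction, a count that includes those that could not move. The other 8 belonged to Podxl and Ptpro: at a common FPKM total they were -0.084 and -0.089, Podxl was -0.059 with quantile normalization, Ptpro was -0.015 with the immunoglobulin genes left out and libraries rescaled, and without single WT libraries Podxl ran from -0.069 to 0.23 and Ptpro from -0.043 to 0.16. The median of the 8 genes lay between -0.027 (common FPKM total) and 0.21 (without WT replicate 1). The number of the 8 within the WT range, an alternative set chosen after seeing the data, was 6 at a common FPKM total (36.7% of all tested genes within), 7 with immunoglobulin genes left out (44.4%), 5 with quantile normalization (37.7%; Wt1 above, Synpo and Plce1 below), and 2 to 8 when 1 WT library was left out (25.4% to 31.1%), where the range is narrower by construction.

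Over all genes, 122 were called, 39 with a pseudocount of 0.1 FPKM, 976 with no filter (33679 genes tested), 6 with immunoglobulin genes left out and 45 to 73 without 1 WT library; the cause was not tested. No paired analysis was possible because the analysed libraries of the 2 groups share only replicate number 1. With 1 KO library, none could be left out. Unknown read depth and 3 WT libraries limit the precision.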

Other observations

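Relatives of the podocyte genes were read in the same libraries. Of 14 listed paralogues, 12 were tested, 0 were called, and 7 had a KO value below every WT library, where 31.2% of all tested genes did. Cd34, the endothelial sialomucin related to podocalyxin, was at 9.80 FPKM in the KO library, against 14.7, 16.8 and 14.2 FPKM in WT replicates 1, 2 and 3 (-0.58, SE 0.12, limma adjusted p = 0.277), while Podxl lay within its WT range. Ptprb, an endothelial receptor phosphatase of the same class as Ptpro, was at 7.05 FPKM in the KO library and 8.59 to 10.6 FPKM in WT libraries (-0.35, limma adjusted p = 0.509). The CIP/KIP relatives of Cdkn1c, Cdkn1a and Cdkn1b, both lay within the WT range (13.1 FPKM in the KO library and 11.9 to 18.1 FPKM in WT libraries for Cdkn1a; 18.8 FPKM and 18.7 to 21.7 FPKM for Cdkn1b).

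Cdkn1c lies in an imprinted cluster on chromosome 7. Of 8 listed neighbours 6 were tested, 0 were called, 3 had a KO value below every WT library and 3 lay within, with a median difference of -0.0073. Among all tested genes, 31.2% lay below every WT library and 40.8% within the WT range. Nap1l4, at 24.4 FPKM in the KO library, against 28.1, 27.2 and 26.7 FPKM in WT replicates 1, 2 and 3, ordered the WT libraries as Cdkn1c did, whereas Slc22a18 and Phlda2 ordered them the other way. Slc22a18, a membrane transporter gene, had 28.6 FPKM in the KO library, against 11.4, 21.4 and 34.1 FPKM in WT replicates 1, 2 and 3 (0.47, limma adjusted p = 0.810), and Phlda2 had 2.21 FPKM in the KO library, against 0.94, 1.55 and 2.53 FPKM in the WT libraries (0.31, limma adjusted p = 0.792). Both were lowest in WT replicate 1, as the proximal tubule markers were, and Cdkn1c was highest there among WT libraries.

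The mean profile of the 8 genes over the 4 libraries was compared with every gene of at least 1 FPKM by root mean square distance of centred log2 values. The 4 closest other genes of 14801 were Hnrnpdl, Igsf9, Bin3 and Gm48768, at distances of 0.0058 to 0.012. None of these is on the podocyte lists used here, and the members themselves ranked from 240 (Cdkn1c) to 6788 (Plce1). A gene with the same level in every library would lie at a distance of 0.137. Plce1 lay at 0.146 and Nphs1 at 0.127, so the mean profile describes these members poorly. With 4 libraries and 14801 genes, close matches can arise by chance, which was not tested.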
